A study of Homo sapiens with 12 samples.

Results

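The regions described here are the SMC1 and CTCF peaks on the long arm of human chromosome 15 whose start lies between 60000000 and 90000000 on hg19, a stretch called the segment below. The limits were selected on measured values, because the peak lists have a raised read background over this stretch. They held 4605 of the 265912 intervals of the 8 SMC1 and CTCF peak lists, and the rest of chromosome 15 held 4755. Where 4 values follow each other below, they stand in the genotype order wild-type, ΔWAPL, ΔSCC4, ΔWAPL/ΔSCC4. SMC1 had 380, 650, 280 and 504 intervals in the segment, and CTCF had 691, 737, 622 and 741.

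Chromatin immunoprecipitation sequencing was done on HAP1, a near-haploid human cell line that descends from a chronic myeloid leukaemia, with antibodies against SMC1 or CTCF or with non-specific IgG. The wild-type cells were the parental line. The ΔWAPL cells (WaplKO_3.3) carried a Blasticidin cassette placed in WAPL with CRISPR, and the ΔSCC4 cells (SCC4KO) carried a Puromycin cassette in SCC4. The ΔWAPL/ΔSCC4 cells came from the ΔWAPL cells by a further knockout of SCC4, each mutant line was a clone, all lines share the mutant p53 of the parental cells, and each of the 12 groups was 1 library, so no test between groups was possible and the intervals below are 95% Wilson intervals that cover counting error only.

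Cohesin is a ring-shaped complex with SMC1 as a core subunit. It is loaded onto DNA with the help of SCC2/SCC4, travels along it, is halted at sites bound by the zinc-finger protein CTCF and is released by WAPL. HAP1 cells are known to carry an additional copy of a part of the long arm of chromosome 15, inserted into another chromosome. Reads from all copies of a sequence map to the same place, so a stretch present in more copies gives more reads, in peaks and between them. The peak lists hold no measurement of DNA copies, and the part of copy number in any result below was not tested.

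The 10 sequences below show what the peaks of the segment look like, first at its left edge and then by class. Each is the summit base with 50 bases on either side in GRCh37 (hg19), printed on the strand of the best match to a 19 bp CTCF motif, with the match in capitals. The motif was learned from the 1000 strongest wild-type CTCF peaks of 11 other chromosomes, and its consensus read NNNCCACNAGGNGGCGNNN, where N marks a position at which no base reached 60%. The first pair comprises the last isolated wild-type CTCF site before the background rises and the first one after it, both in introns of RORA, a nuclear receptor gene.
Last site before the rise, chr15:61080110-61080210, minus strand: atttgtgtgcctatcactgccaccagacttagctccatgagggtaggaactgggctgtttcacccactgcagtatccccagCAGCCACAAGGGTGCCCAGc
First site after the rise, chr15:61209274-61209374, minus strand: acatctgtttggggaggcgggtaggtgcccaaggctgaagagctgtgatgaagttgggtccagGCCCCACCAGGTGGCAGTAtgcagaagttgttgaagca

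The next 8 are the sites of highest fold enrichment in their class, taken over all genotypes with a peak there. Fold enrichment is the read pileup at the summit over the local background, each with 1 read added. Each is 1 example of its class, shown because its values are described below, and the shares of each class with a match are given there too. The sequences without a match are printed on the plus strand with each CG in capitals.
SMC1 in all 4 genotypes at CTCF, chr15:79043543-79043643, minus strand: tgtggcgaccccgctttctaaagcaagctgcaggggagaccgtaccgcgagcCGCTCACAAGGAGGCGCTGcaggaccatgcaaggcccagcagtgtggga
SMC1 in ΔWAPL and ΔWAPL/ΔSCC4 only, chr15:88998405-88998505, minus strand: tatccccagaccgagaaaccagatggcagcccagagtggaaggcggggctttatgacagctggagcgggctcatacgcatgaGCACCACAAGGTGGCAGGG
SMC1 in ΔWAPL only at CTCF, chr15:66880977-66881077, plus strand: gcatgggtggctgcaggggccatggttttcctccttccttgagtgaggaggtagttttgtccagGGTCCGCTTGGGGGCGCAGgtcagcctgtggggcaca
SMC1 in ΔWAPL only near a transcript start without CTCF, chr15:84748922-84749022, minus strand: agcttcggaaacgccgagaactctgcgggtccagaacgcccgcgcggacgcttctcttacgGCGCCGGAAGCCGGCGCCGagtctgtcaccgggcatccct
SMC1 in ΔWAPL only farther away without CTCF, chr15:74583983-74584083, plus strand: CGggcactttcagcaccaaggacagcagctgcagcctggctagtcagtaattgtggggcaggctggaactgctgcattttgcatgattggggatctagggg
SMC1 in wild-type but not ΔSCC4, chr15:75600533-75600633, minus strand: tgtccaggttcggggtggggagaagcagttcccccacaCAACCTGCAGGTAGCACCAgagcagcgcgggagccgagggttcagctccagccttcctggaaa
CTCF in all 4 genotypes without SMC1 in any, chr15:69506270-69506370, plus strand: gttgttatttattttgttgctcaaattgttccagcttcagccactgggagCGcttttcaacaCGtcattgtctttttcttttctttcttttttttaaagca
CTCF in wild-type but not ΔSCC4, chr15:86764472-86764572, plus strand: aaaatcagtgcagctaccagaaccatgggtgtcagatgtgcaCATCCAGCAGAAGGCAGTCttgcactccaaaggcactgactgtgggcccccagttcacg

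The background beside the peaks, which chose the segment, is given first as a description. For each peak the background used by the peak caller was recovered from the deposited values as whole reads in the 10 kb around the summit, and divided by the average of its library. That average was 6.79 to 8.41 reads per kb in the SMC1 libraries and 6.53 to 8.41 in the CTCF libraries. The median relative background of SMC1 peaks in the segment was 2.92, 3.43, 2.74 and 3.11, against 1.45, 1.76, 1.44 and 1.69 on the rest of chromosome 15. For CTCF peaks it was 3.49, 3.24, 3.42 and 3.43 in the segment and 2.01, 1.82, 1.93 and 1.85 outside. The segment was higher in all 8 lists, by a factor of 1.74 to 2.01 with a median of 1.85 ± 0.0939 (SD over 8 lists).

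These medians contain the reads of the peaks themselves, because a strong peak adds to its own 10 kb. The values were therefore also taken at isolated peaks, with no other summit between 500 bp and 6 kb away, after the summit reads had been taken off. The median relative background was then 2.07 to 2.46 in the segment and 1.09 to 1.28 on the rest of the chromosome over the 8 lists. The ratio of the segment to the rest lay between 1.81 and 2.00, and no list stood apart. Of the peaks in the segment, 0.198% to 1.61% had the lowest possible background of their list, compared with 1.45% to 10.4% on the rest of the chromosome.

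**Figure D1:**
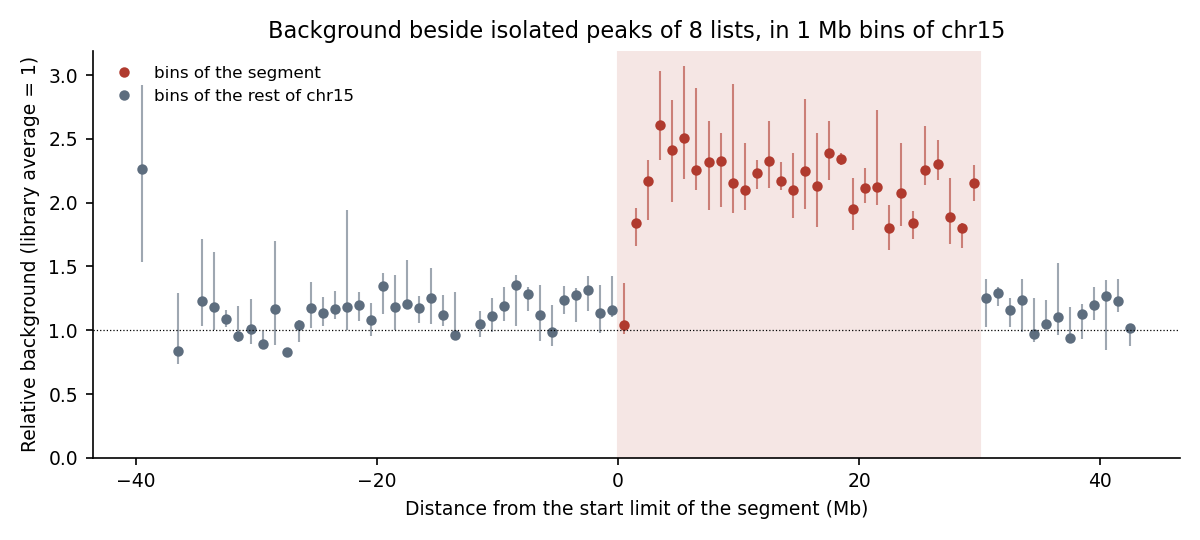
Median relative background beside isolated peaks in 1 Mb bins of chromosome 15 against the distance of the bin from the start limit of the segment in Mb, with points for the median over the 8 lists and lines for their range. Bins of the segment other than the first lie between 1.80 and 2.61, and outside it 1 bin is at 2.27 and the others reach at most 1.36.

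The raised background formed 1 block. In bins of 1 Mb, the level of the segment had a median of 2.16 and ran from 1.04 in the bin that starts at 60 Mb to 2.61 in the bin that starts at 63 Mb. The first bin was thus at the level of the rest of chromosome 15, whose median was 1.16. A level above 1.75 was found in 29 of the 30 bins of the segment. It was found in 1 of 49 bins on the rest of the chromosome, the bin at 20 Mb next to the centromere, and in 1.2% of the 2666 bins on chromosomes 1 to 22 and X. Outside chromosome 15 there were 2 such bins, at 29 Mb on chromosome 20 and at 10 Mb on chromosome 21. The longest run of such bins was 29 on chromosome 15 and 1 elsewhere.

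The background changed level between neighbouring isolated sites at both edges. Over the 8 lists together, the left step lay between the summits at chr15:61080160 and chr15:61197947. Both positions are inside RORA, which spans chr15:60780483-61521501 on the minus strand and codes for a receptor that binds DNA as a monomer, so the step lies within that gene. The right step lay between chr15:89865058, in POLG, the gene of the mitochondrial DNA polymerase, and chr15:89974041 in the sequence beyond it. The raised stretch between the inner sites measured 28.7 Mb. It held 4443 of the 4605 intervals, with 113 to its left and 49 to its right.

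The wild-type CTCF peaks beside the edges are given as single values. The 3 peaks before the left edge, with summits at 60915530, 60964792 and 61080160, had relative backgrounds of 1.06, 0.847 and 1.12 after the summit reads were taken off. The 3 peaks after it, at 61209324, 61302943 and 61343800, had 2.16, 1.65 and 1.85. These 2 groups of values did not overlap, but they were among the values that placed the edge, so this is a description only. All 6 peaks lay in introns of RORA. Over the 8 lists together the isolated sites did overlap, since farther out, before the step, the sites at 60800177 and 60813160 had medians of 1.67 and 1.53 in 7 lists each, and after it the sites at 61302943, 61496009 and 61994885 had 1.47, 1.42 and 1.37.

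On the right, the last 3 peaks up to the step had 1.78, 1.62 and 2.01, with summits at 89787118 beside the start of FANCI, a gene of DNA crosslink repair, at 89843406 in an intron of FANCI and at 89865011 in an exon of POLG. The 3 wild-type CTCF peaks that follow, at 89875785, 89900084 and 89902016, had 2.56, 4.87 and 4.09, but none of them was isolated, and reads of neighbouring peaks fall in their windows. The next isolated site, around 89974114, had a median of 1.43 over the 8 lists (range 1.11 to 1.61), followed by 1.23 at 89986107 and 1.29 at 90016193. An isolated site before the step, at 89843366, had 1.46 in 3 lists, inside the range of the site at 89974114.

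**Figure D2:**
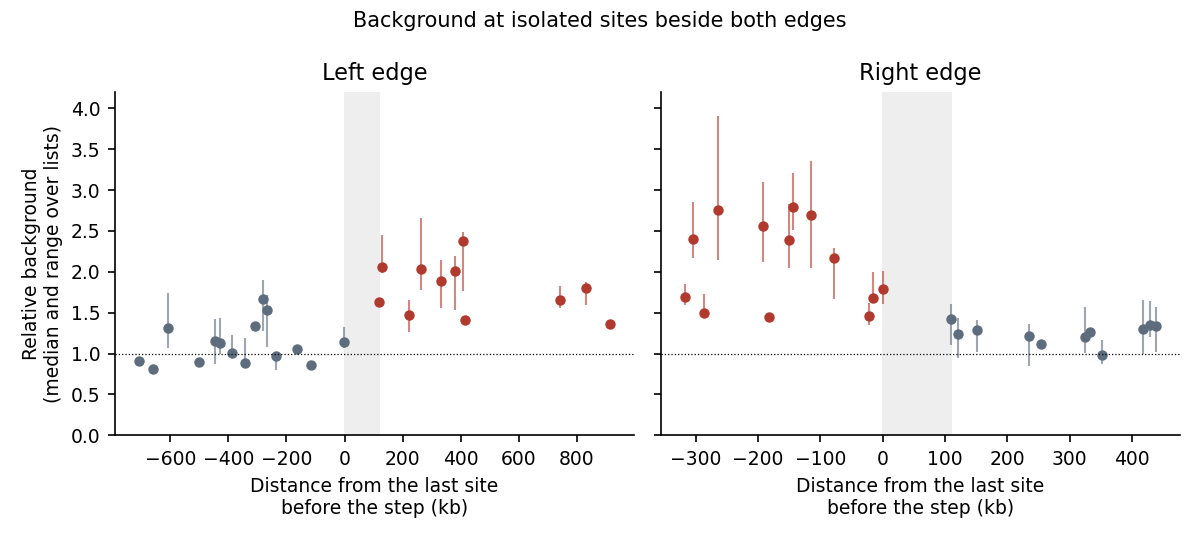
Relative background at isolated sites against their distance in kb from the last site before the step at the left edge and at the right edge, with points for the median and lines for the range over the lists with a peak at the site. The grey band is the gap in which the step lies, the raised side is red, and at the left edge 2 sites at 1.67 and 1.53 before the step overlap the values after it.

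Single lists placed the edges less closely. With all peaks and the background as recovered, the left edge moved between 60619196 and 62126503 and the right edge between 89902010 and 90044078, depending on the list. With isolated peaks, the left edge of the SMC1 lists lay between 59914724 and 62456785, and all 4 CTCF lists placed theirs between 61080116 and 61209324. For the right edge, 3 of the 4 CTCF lists placed it between 89849551 and 89974134, and the ΔWAPL/ΔSCC4 list placed it between 89974123 and 89986107.

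The limits of the rule are not edges of the background. In the wild-type CTCF list, the last peak outside the start limit, which starts at 59983424, had a relative background of 1.27 after its summit reads were taken off, and the first inside, which starts at 60017006, had 1.30. At the end limit the last peak inside had 1.35 and the first outside had 1.41. Over the 8 lists the values ran from 0.942 to 1.57 just outside and from 1.14 to 1.64 just inside the start limit.

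Peaks of the segment had higher pileups but about the same fold enrichment as peaks on the rest of the chromosome. The median summit pileup of SMC1 peaks was 32, 38, 28 and 35 reads, compared with 19, 23, 20 and 22 outside. For CTCF peaks it was 60, 61, 57 and 59 reads, compared with 39.5, 39, 39 and 37. The ratio of the segment to the rest was between 1.40 and 1.68 for pileup and between 0.927 and 1.03 for fold enrichment. Fold enrichment divides pileup by background, and both were higher in the segment.

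The caller's −log10 q, in contrast, rises with the number of reads. Its median was 1.23 to 1.62 times as high in the segment as on the rest of the chromosome over the 8 lists. Intervals were also wider, by 1.08 to 1.18 times in the median. These values come from the same reads that chose the segment, and they are given as a description.

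How many of the top peaks lay in the segment depended on the ranking. The segment held 1.56% to 2.19% of all peaks of a list. Of the 100 SMC1 peaks of highest −log10 q, 12, 14, 10 and 14 lay in the segment, and of the 100 CTCF peaks 17, 18, 16 and 15. Ranked by fold enrichment, the segment held 2, 0, 2 and 3 of the top 100 SMC1 peaks and none of the top 100 CTCF peaks in any genotype, where 0 of 100 has an upper limit of 3.70%. Among the 1000 peaks of highest pileup, the share in the segment was 7.4% to 10.7% for SMC1 and 13.7% to 14.8% for CTCF.

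**Figure D3:**
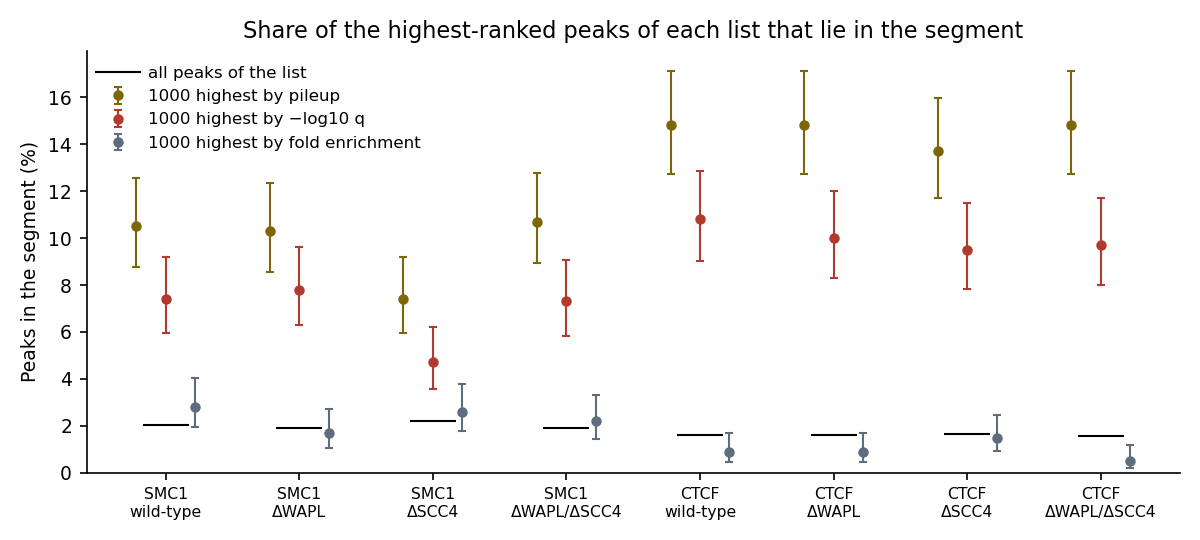
Share in percent of the 1000 highest-ranked peaks of each list that lie in the segment, ranked by pileup, by −log10 q or by fold enrichment, with 95% Wilson intervals and a dash for the share of all peaks of the list. By pileup and −log10 q the share lies above that of all peaks in each list, from 4.7% to 14.8%, whereas by fold enrichment it holds between 0.5% and 2.8%.

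Peaks were more densely spaced in the segment than on the rest of chromosome 15. Per Mb of sequence that is not N, there were 12.7, 21.7, 9.36 and 16.9 SMC1 peaks, compared with 6.62, 12.05, 4.15 and 9.33 on the rest. The ratios were 1.92 (1.66 to 2.22), 1.80 (1.62 to 2.01), 2.26 (1.89 to 2.69) and 1.81 (1.60 to 2.05). For CTCF the densities were 23.1, 24.6, 20.8 and 24.8 peaks per Mb, compared with 14.4, 15.9, 12.9 and 16.5, with ratios of 1.60, 1.55, 1.62 and 1.50. The segment had 28.4 annotated genes per Mb and the rest 29.9, while protein-coding genes numbered 8.33 and 6.91 per Mb. The median distance between neighbouring wild-type SMC1 peaks was 46.8 kb in the segment and 88.98 kb on the rest, and for wild-type CTCF peaks it was 26.4 kb and 36.1 kb.

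The excess in SMC1 density depended on the measure by which weak peaks were left out. With a −log10 q of at least 10 the SMC1 ratios were 2.81, 2.17, 3.03 and 2.24, and with a fold enrichment of at least 5 they were 1.58, 1.57, 1.61 and 1.61. The CTCF ratios changed less, to 1.65, 1.59, 1.65 and 1.60 with the first limit and 1.52, 1.44, 1.58 and 1.44 with the second. Another view divides the pileup and background of all peaks in the raised stretch by 2 and keeps those that still reach a given −log10 p. With the lowest −log10 p of the list as the limit, 4449 of the 4605 intervals were kept and 3.39% were lost. With the 5th percentile of the list as the limit, applied on all chromosomes, 26.4% to 37.5% of the SMC1 and 17.0% to 20.1% of the CTCF intervals of the segment were lost. The density ratios were then 1.35 to 1.46 for SMC1 and 1.30 to 1.40 for CTCF, and the lower ends of their intervals lay between 1.17 and 1.25.

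How far the classes of peaks differed in this respect depended on the limit. Of the SMC1 peaks in the segment, 348, 506, 255 and 456 lay on a CTCF peak called in that genotype, which made up 91.6%, 77.8%, 91.1% and 90.5%. Over all chromosomes the shares were 94.5%, 81.6%, 95.2% and 93.5%. SMC1 peaks without CTCF within 1 kb of a transcript start numbered 25, 119, 21 and 38, and those farther away numbered 7, 25, 4 and 10. The start-site class had 3.98 peaks per Mb in ΔWAPL cells in the segment and 2.03 on the rest of the chromosome, a ratio of 1.963 (1.51 to 2.55). With halved values and the limit at the 5th percentile, chosen after seeing the data, 44 of the 119 peaks were left. The ratio was then 0.820 (0.574 to 1.17). For SMC1 peaks at CTCF in ΔWAPL cells the corresponding ratio was 1.48 (1.30 to 1.69), compared with 1.75 as deposited. In wild-type cells the start-site class went from 25 to 4 peaks and in ΔSCC4 cells from 21 to 2, under both changes together, whereas division by 2 with the lowest −log10 p as the limit kept 14 and 12 of them. In ΔWAPL cells that limit gave similar ratios, 1.78 (1.36 to 2.33) for the start-site class and 1.71 (1.51 to 1.93) at CTCF. A −log10 q of at least 10 gave 4.04 (2.23 to 7.34) and 2.08 (1.79 to 2.42). A fold enrichment of at least 5 gave 1.22 (0.741 to 2.00) and 1.63 (1.41 to 1.87).

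CTCF peaks with an SMC1 peak numbered 347, 511, 253 and 457 in the segment, and those without numbered 344, 226, 369 and 284. The density ratio to the rest of the chromosome was 1.75 to 2.12 for CTCF peaks with SMC1 and 1.22 to 1.39 for those without. This split also depended on the limit. With a fold enrichment of at least 5 in both lists the ratios were 1.61 to 1.65 and 1.21 to 1.55. With a −log10 q of at least 10 they were 2.09 to 3.03 and 1.11 to 1.39. In wild-type cells 50.2% of the CTCF peaks in the segment had SMC1, and in ΔSCC4 cells 40.7%, compared with 40.7% and 32.3% over all chromosomes. With a fold enrichment of at least 5 these shares were 40.4% and 29.2%, compared with 35.7% and 26.7%. With a −log10 q of at least 10 they were 41.5% and 28.3%, compared with 25.5% and 16.4%. As deposited, the total of CTCF peaks in the segment ran from 622 to 741 over the genotypes, and the number with SMC1 from 253 to 511.

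**Figure D4:**
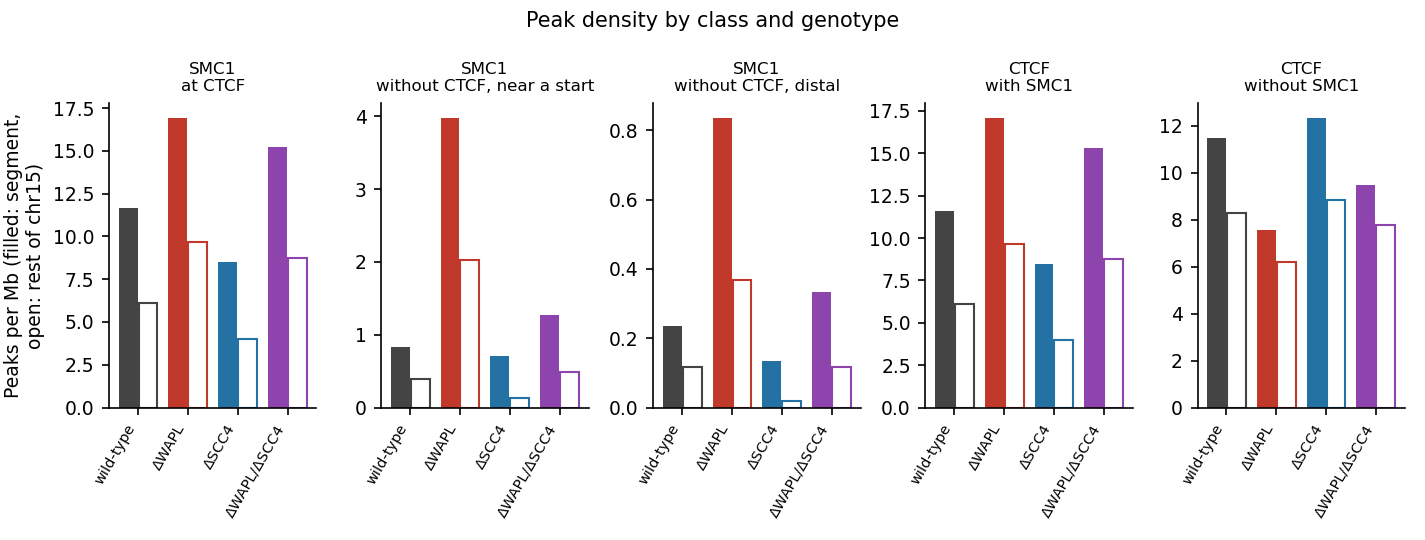
Peaks per Mb in 5 classes of SMC1 and CTCF peaks for the 4 genotypes, with filled bars for the segment and open bars for the rest of chromosome 15, on axes that start at 0 and differ in scale. With the peaks as deposited, the segment bar is the higher of each pair in all 20 pairs, and ΔWAPL has the highest bar in each class except CTCF without SMC1.

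Loss of WAPL gave more SMC1 peaks in the segment, and loss of SCC4 fewer. Relative to wild-type, the number of SMC1 peaks was 1.71 for ΔWAPL (1.51 to 1.94), 0.737 for ΔSCC4 (0.632 to 0.860) and 1.33 for ΔWAPL/ΔSCC4 (1.16 to 1.52). On the rest of chromosome 15 the ratios were 1.82, 0.627 and 1.41, and on the other chromosomes 1.83, 0.689 and 1.44. Over the other chromosomes taken singly they ran from 1.60 to 2.12, from 0.598 to 0.788 and from 1.10 to 1.86. The 3 values of the segment lay inside these ranges. In bins of 5 Mb inside the segment, the ΔWAPL ratio was 1.48 to 1.87 and the ΔSCC4 ratio was 0.62 to 0.831.

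CTCF peaks changed less in number. The ratio to wild-type was 1.07 (0.961 to 1.18) in ΔWAPL, 0.9001 (0.808 to 1.00) in ΔSCC4 and 1.07 (0.967 to 1.19) in ΔWAPL/ΔSCC4 cells. Each of these intervals holds 1. Over the other chromosomes taken singly the ratios ran from 0.972 to 1.11, from 0.828 to 0.895 and from 1.03 to 1.19, so that the ΔSCC4 ratio of the segment lay just above the highest of them. CTCF peaks with SMC1 had ratios of 1.47, 0.729 and 1.32, and those without had 0.657, 1.07 and 0.826. SMC1 peaks near a start without CTCF were 4.76 (3.10 to 7.30) times as many in ΔWAPL as in wild-type cells in the segment and 5.25 (3.27 to 8.43) times on the rest of the chromosome.

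**Figure D5:**
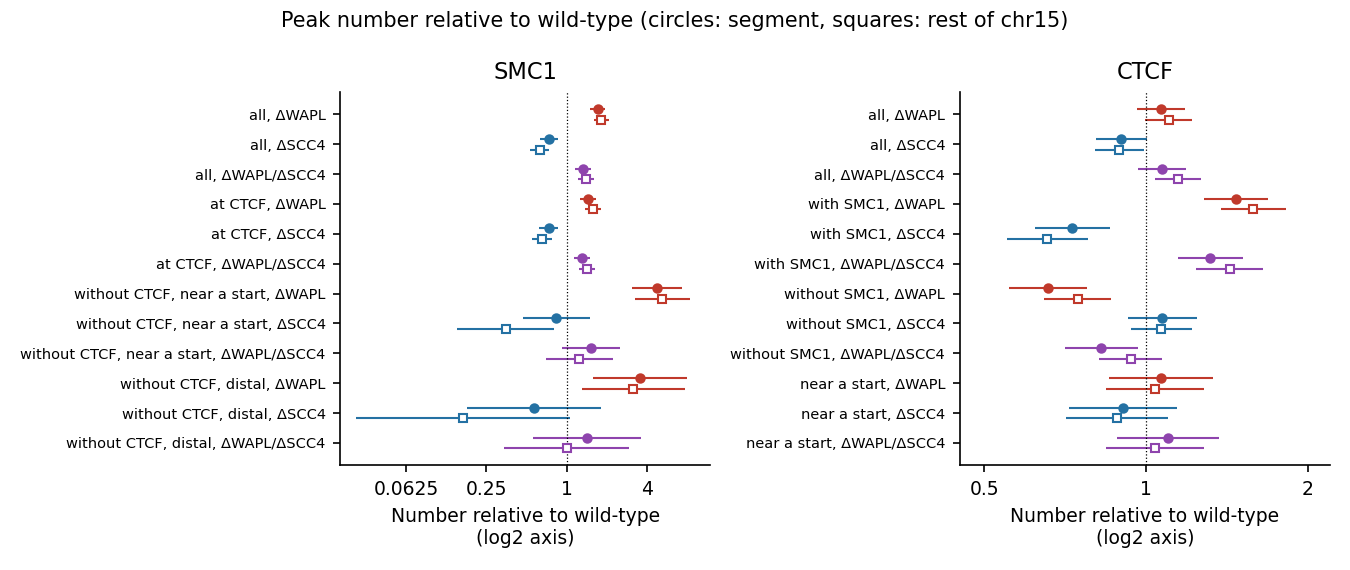
Number of peaks relative to wild-type on a log2 axis for each class and mutant genotype, with 95% intervals from the counts, as circles for the segment and squares for the rest of chromosome 15. The intervals of circle and square overlap in every row, and SMC1 peaks near a start without CTCF in ΔWAPL cells are at 4.76 and 5.25.

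Shared and lost peaks were counted by overlap. Of the 650 SMC1 peaks of ΔWAPL cells in the segment, 290 (44.6%) had no wild-type peak, and the share over all chromosomes was 49%. These 290 peaks had a median pileup of 25 reads, compared with 62.5 reads for the 360 shared ones. At CTCF were 161 of the 290, a lower share than the 506 of all 650 ΔWAPL peaks (77.8%). On the rest of chromosome 15 the share was also lower, with 198 of 304, compared with 500 of all 624 (80.1%). Of the 380 wild-type peaks, 15 (3.95%) were absent from ΔWAPL cells, and the share over all chromosomes was 6.28%. Of the ΔWAPL peaks, 175 (26.9%) were absent from ΔWAPL/ΔSCC4 cells, and the share over all chromosomes was 31.5%. In each of these 3 comparisons the shares in the segment were somewhat below those elsewhere.

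For loss of SCC4 the segment and the rest of the chromosome lay farther apart. Of the 380 wild-type SMC1 peaks of the segment, 126 (33.2%, 28.6 to 38.0) had no peak in ΔSCC4 cells, and the share over all chromosomes was 39.8%. On the rest of chromosome 15 it was 152 of 343 (44.3%, 39.1 to 49.6). The median wild-type pileup of the lost peaks was 22 reads in the segment and 16 outside. Of the 126 lost peaks of the segment, 102 were at CTCF, a lower share than the 348 of all 380 wild-type peaks (91.6%). On the rest of the chromosome the share was also lower, with 130 of 152, compared with 317 of all 343 (92.4%). As deposited, the number of SMC1 peaks in ΔSCC4 relative to wild-type cells was 0.737 in the segment and 0.627 on the rest of the chromosome. With halved values and the lowest −log10 p as the limit it was 0.727 and 0.627, nearly as far apart. With the limit at the 5th percentile, chosen after seeing the data, it was 0.655 and 0.630, and 0.690 on the other chromosomes. With a fold enrichment of at least 5 it was 0.642 and 0.629, and 0.657 on the other chromosomes. With a −log10 q of at least 10 it was 0.620 and 0.575, and 0.572 on the other chromosomes. The cause of the difference was not tested. Of the 691 wild-type CTCF peaks, 96 (13.9%) were absent from ΔSCC4 cells, and the share over all chromosomes was 16.6%.

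The lists of each antibody were then merged into regions. There were 693 SMC1 regions in the segment, and 248 of them (35.8%, 32.3 to 39.4) had a peak in all 4 genotypes, compared with 27.4% (24.2 to 30.8) on the rest of the chromosome and 28.2% over all chromosomes. Peaks in ΔWAPL only made up 153 regions (22.1%, and 24.3% over all chromosomes), peaks in ΔWAPL and ΔWAPL/ΔSCC4 only made up 115, and peaks in all genotypes except ΔSCC4 made up 96 (13.9%, and 14.1% over all chromosomes). Of the 839 CTCF regions, 576 (68.7%) had a peak in all 4 genotypes, and over all chromosomes the share was 64.2%. The group of SMC1 regions in ΔWAPL and ΔWAPL/ΔSCC4 only, at 16.6% of the regions, was near the 16.1% over all chromosomes.

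At regions with a peak in all 4 genotypes, the pileup per library average can be set side by side. At the 248 SMC1 regions of the segment, the median ratio to wild-type was 1.81 for ΔWAPL (quartiles 1.41 and 2.38), 0.754 for ΔSCC4 (0.644 and 0.908) and 1.33 for ΔWAPL/ΔSCC4 (1.09 and 1.60). Values above wild-type were found at 229, 36 and 203 of them (92.3%, 14.5% and 81.9%). On the other chromosomes, with 10272 regions, the shares were 87.5%, 23.9% and 79.1%. On the rest of the chromosome, with 187 regions, the medians were 1.74, 0.801 and 1.36. At the 576 CTCF regions the medians were 0.818, 0.790 and 0.925, and on the rest of the chromosome they were 0.808, 0.809 and 0.914. The direction at shared sites was the same in the segment as outside for each genotype and antibody.

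The CTCF motif, which the rule did not use, was found at a similar share of wild-type CTCF peaks in the segment and outside. A match was counted within 50 bp of the summit at a score reached by 5% of control windows, placed 1000 bp downstream of CTCF summits. In the segment 570 of 691 wild-type CTCF peaks (82.5%, 79.5 to 85.1) had a match, compared with 80.7% (77.7 to 83.4) on the rest of chromosome 15. In the windows 1000 bp downstream the shares were 6.08% and 4.96%. Matches lay on the plus strand in 50.9% and 51.3% of cases. The intervals of the match share overlap. For SMC1 peaks of ΔWAPL/ΔSCC4 cells they did not, with a match at 73.6% (69.6 to 77.3) in the segment and 64.8% (60.4 to 68.9) on the rest of the chromosome, and among those at CTCF at 78.1% (74.0 to 81.6) and 68.1% (63.7 to 72.3).

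The match share differed between classes within the segment. CTCF peaks with SMC1 had a match in 95.1% of cases in wild-type cells, and those without SMC1 in 69.8%. The corresponding shares in ΔSCC4 cells were 97.2% and 75.3%. SMC1 peaks without CTCF near a start had a match in 31.1% of 119 cases in ΔWAPL cells, where 1.68% of the windows downstream had one. The median GC content of the 301 bp around those 119 summits was 71.4% with 33 CG dinucleotides, compared with 54.0% and 5 for SMC1 peaks at CTCF in the same list and 43.7% for the whole segment. GC content moved with this match share, and its part in it was not tested.

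By pattern, 91.7% of the 242 SMC1 regions at CTCF in all 4 genotypes had a match, compared with 60.9% of the 115 regions in ΔWAPL and ΔWAPL/ΔSCC4 only, 67.7% of the 62 at CTCF in ΔWAPL only and 64.8% of the 122 in wild-type but not ΔSCC4. Among the 71 start-site regions without CTCF in ΔWAPL only it was 29.6%. Over all 693 SMC1 regions of the segment the share was 67.7%. The pattern groups also differed in strength, with a median of the highest fold enrichment per region of 9.498 in the first group and 5.56, 4.35, 6.09 and 3.75 in the others.

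The strongest SMC1 region in all 4 genotypes, chr15:79043221-79043775, was intergenic, 856 bp from the start of a long noncoding RNA gene and 13862 bp from that of ADAMTS7, which codes for a secreted metalloprotease. Its SMC1 fold enrichment was 8.61, 17.0, 7.06 and 10.2, from 35, 121, 26 and 46 reads. CTCF at the same place had 27.0, 20.3, 24.7 and 23.2. The site was chosen for the highest SMC1 fold enrichment in any genotype, here that of ΔWAPL, and not for its CTCF values. The order of the SMC1 values is therefore a description only. The match printed above equals the consensus at 10 of its defined positions.

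The strongest region with SMC1 in ΔWAPL and ΔWAPL/ΔSCC4 cells only, chr15:88998139-88998659, lay between genes, 9589 bp from the start of MRPL46, a mitochondrial ribosomal protein gene. SMC1 had 86 reads and a fold enrichment of 10.5 in ΔWAPL cells, 40 reads and 6.66 with SCC4 also deleted, and no peak in the other genotypes. CTCF was present in all 4, with 12.2, 11.8, 11.04 and 10.6. The CTCF values lay close together, whereas the genotype pattern of SMC1 was fixed by the choice of the class.

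The strongest region at CTCF in ΔWAPL only, chr15:66880860-66881226, was in an intron of LINC01169, a long noncoding RNA gene, and had an SMC1 fold enrichment of 7.98 from 50 reads. CTCF at this place had 7.97, 11.5, 6.51 and 11.3. The strongest start-site region without CTCF, chr15:84748772-84749205, lay 27 bp from the start of a long noncoding RNA that overlaps EFL1P1, a pseudogene of the ribosome assembly factor gene EFL1. It had 24 SMC1 reads and a fold enrichment of 6.10 in ΔWAPL cells only, and reads from near-identical copies of this sequence could have been assigned elsewhere, so its value is uncertain. The strongest region far from starts without CTCF, chr15:74583863-74584163, was in an intron of CCDC33, with 42 reads and 7.35 in ΔWAPL cells and no peak in the 7 other lists.

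Among regions with SMC1 in wild-type but not ΔSCC4 cells, the highest fold enrichment in any genotype, that of ΔWAPL, was at chr15:75600318-75600821, between genes. SMC1 there had 24 reads and a fold enrichment of 5.08 in wild-type, 93 reads and 14.1 in ΔWAPL, and 35 reads and 7.59 in the ΔWAPL/ΔSCC4 library. CTCF was present in all 4 genotypes with 17.8, 18.0, 12.1 and 19.4, lowest in ΔSCC4 cells. The strongest region in wild-type but not ΔWAPL, chr15:75801344-75801627, in an intron of the tyrosine phosphatase gene PTPN9, had 30 reads and 5.76 and no SMC1 peak in any other genotype, with CTCF in all 4. This class had only 15 regions, and all of them had a fold enrichment of 5.76 or less.

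For CTCF, the strongest region in all 4 genotypes without SMC1 in any, chr15:69506036-69506642, lay in an intron of GLCE, which codes for an epimerase of heparan sulfate synthesis. Its fold enrichment was 19.6, 15.3, 15.3 and 18.3, and no motif match passed the score within 50 bp of the summit. The class had 96 regions, of which 63.5% had a match. Among regions with CTCF in wild-type but not ΔSCC4 cells, the highest fold enrichment in any genotype, again that of ΔWAPL, was at chr15:86764360-86764689 in an intron of AGBL1, with 8.55 in wild-type, 16.3 in ΔWAPL cells and 13.5 with SCC4 also deleted. SMC1 was called at this place in ΔWAPL (9.02) and ΔWAPL/ΔSCC4 cells (5.74). CTCF in ΔWAPL but not wild-type was strongest at chr15:82395775-82396203, between genes, with 10.6 in ΔWAPL cells and 6.51 with SCC4 also deleted. SMC1 was called in the same 2 genotypes.

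Peaks at the genes of the segment followed the numbers over the whole segment. Counting peaks in the gene body and 5 kb on each side, 66.3% of its 249 protein-coding genes had an SMC1 peak in wild-type cells, with 88.8%, 53.4% and 76.7% in the mutants. A peak within 1 kb of the gene's start was found at 23.3%, 57.8%, 14.5% and 32.5%. More SMC1 peaks in ΔWAPL than in wild-type cells were counted at 153 genes and fewer at 6, and in ΔSCC4 cells more at 12 and fewer at 91. For CTCF, 82.7%, 83.5%, 78.7% and 83.5% of the genes had a peak. No such counts are given for genes outside the segment, so whether these values are particular to it was not tested. On the other chromosomes, loss of WAPL also raised the number of SMC1 peaks, by a factor of 1.83. Loss of SCC4 lowered it there, by a factor of 0.689. Of 48 listed genes with known roles, 35 had more SMC1 peaks in ΔWAPL cells and 1 had fewer, compared with 61.4% and 2.41% of all 249.

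Among the transcription genes, RORA, in which the left edge lies, had 6, 9, 1 and 7 SMC1 peaks and 14, 14, 12 and 13 CTCF peaks. TLE3, a corepressor gene, had 0, 3, 1 and 1 SMC1 peaks and 2 CTCF peaks in each genotype. ISL2, which codes for a homeodomain factor of motor neurons, had 0, 2, 0 and 1 SMC1 peaks. The 8 genes of this list together had 15, 29, 9 and 19 SMC1 peaks, while their CTCF peaks numbered 31, 34, 29 and 33. SMC1 varied and CTCF stayed within a narrow range.

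Among the signalling genes, NEO1, a receptor for netrins, had 7, 10, 4 and 9 SMC1 peaks, and NTRK3, a neurotrophin receptor gene, had 2, 5, 1 and 3. SMAD3, which codes for a mediator of TGF-β signals, had at most 1 SMC1 peak in any genotype. IL16, a cytokine gene, had 4, 2, 4 and 4 and was the only listed gene with fewer SMC1 peaks in ΔWAPL than in wild-type cells. The 8 genes together had 20, 29, 16 and 25.

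The cluster of nicotinic receptor genes CHRNA5, CHRNA3 and CHRNB4 with the neighbours PSMA4 and IREB2 had 5, 10, 3 and 5 SMC1 peaks and 11, 9, 9 and 10 CTCF peaks, and all 5 genes had more SMC1 peaks in ΔWAPL than in wild-type cells. Genes in this and the other lists can share peaks where their spans with 5 kb on each side overlap, and a shared peak is then counted at each gene, as at ACAN and HAPLN3 below. CYP1A1, CYP1A2 and CYP11A1, which code for cytochrome P450 enzymes, had no SMC1 peak in any genotype. Among 7 metabolic genes, PKM, the pyruvate kinase gene, had 1, 3, 0 and 2 SMC1 peaks and FAH, the gene of the last enzyme of tyrosine breakdown, had 1, 4, 1 and 2. All 7 had an SMC1 peak within 1 kb of their start in ΔWAPL cells and 3 did in wild-type cells.

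The 8 matrix and cytoskeleton genes, with ACAN and HAPLN3 sharing a peak, had summed counts of 17, 28, 12 and 23 SMC1 peaks, of which TLN2, a talin gene, held 5, 6, 3 and 7. Of the ribosomal protein genes, RPLP1 had an SMC1 peak in ΔWAPL cells only. The 5 genes of genome maintenance and division had 2, 9, 1 and 3 SMC1 peaks and 8, 11, 7 and 11 CTCF peaks. KIF23, a kinesin gene of cytokinesis, had 0, 3, 0 and 0. At the right edge, FANCI had 0, 1, 0 and 1 and POLG 1, 2, 0 and 0.

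Of 4 protein-coding genes over 500 kb long, THSD4, the gene of a matrix protein of microfibrils, had the most peaks of any gene in the segment, with 10, 15, 11 and 15 SMC1 and 22, 22, 19 and 21 CTCF peaks. AGBL1, a carboxypeptidase gene, had 4, 7, 2 and 10 SMC1 peaks, and its CTCF peaks numbered 14, 14, 8 and 15. SCAPER had 0, 4, 2 and 5 SMC1 peaks with 5, 5, 6 and 5 CTCF peaks. Together with RORA they had 20, 35, 16 and 37 SMC1 peaks, so that ΔWAPL/ΔSCC4 cells had 37 against 35 in ΔWAPL cells, whereas in the other lists they had fewer, apart from the cytochrome P450 genes at 0 in both.

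None of the 4605 intervals overlapped an IgG peak. The 4 IgG lists held 2009 peaks, of which 1 lay on chromosome 15 and none in the segment, so that the IgG lists show neither background nor edges there.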

How the data were processed

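Groups were the combinations of genotype and antibody that the labels give, with 1 library in each of 12 groups. The authors mapped single-end reads to hg19 with Bowtie2 and called peaks per library with MACS2 2.1.1. The lists used here held 18542, 33952, 12779 and 26558 SMC1 peaks. For ΔWAPL the paper reports more SMC1 peaks than its list holds, and for ΔSCC4 fewer. The changes from wild-type in these 2 genotypes are therefore smaller here than in the paper, and the reason was not tested. The methods name IgG as control, but the recovered backgrounds were whole reads of 10 kb windows for 100% of the tested peaks of each list (tolerance 0.05 reads). The calling threshold was not given in the sources used here. Each deposited list gives a fold enrichment (a ratio with 1 read added to both terms), a −log10 p-value and a −log10 q-value for each summit, computed by the authors. The integer score column that the authors deposited is a rescaled −log10 q made by the caller, and it was not used.

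The pileup and background that solve the deposited fold enrichment and −log10 p were found for each peak, with 1 solution for at least 99.9% of the peaks of a list, by a script tested on simulated data. A library's average is its lowest background per fragment length. Peaks were shared when they overlapped by at least 1 bp. Starts and genes came from GENCODE 44 mapped to GRCh37, the same build as the files. Density used 29.9 Mb of the segment and 51.8 Mb of the rest. Intervals are 95% Wilson intervals. The interval of a ratio of 2 numbers is that of the share of 1 number in their sum. They cover counting error only, since reads are not independent molecules and 1 library per group shows no variation between cultures.

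Motif matches used the 19 bp matrix described above, from even-numbered autosomes. Named regions were those of highest fold enrichment, without an IgG peak, in 10 classes, and named genes came from lists by function, of which 1 gene is not reported here. The members, classes and lists were chosen with earlier results of these data known. As alternatives, a −log10 q of at least 5 or 10, fold enrichment of at least 5, halved pileup and background in the raised stretch, the edges as limits, peaks within 500 bp merged, a 50% overlap, summits within 250 bp, gene starts as denominator, and other summaries of the background were tried. Halving with the 5th percentile of −log10 p, and isolated peaks with summit reads taken off, were chosen after seeing the data. Analyses used Python 3.11.15, numpy 2.4.6, pandas 2.3.3, scipy 1.17.1 and matplotlib 3.10.9.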

Additional observations from a re-analysis of the deposited data

Results flagged for a closer look

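Loss of SCC4 moved the number of CTCF peaks of the segment in opposite directions in the 2 WAPL backgrounds. With WAPL present the number went from 691 to 622 (a ratio of 0.9001, 0.808 to 1.00), and without WAPL it went from 737 to 741 (1.0054, 0.908 to 1.11), so that the ratio of the ratios was 1.12. For CTCF peaks within 1 kb of a start it went from 151 to 137 (0.907) and from 161 to 166 (1.03), with a ratio of 1.14. These were 2 of 16 comparisons of this kind, the intervals overlap, and the difference was not tested. It was not particular to the segment. Over all chromosomes the CTCF peaks went from 43050 to 37625 with WAPL and from 45798 to 47608 without it. Those within 1 kb of a start went from 8702 to 7593 and from 8929 to 9276. On the rest of chromosome 15 all CTCF peaks went from 746 to 666 and from 822 to 856.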

How the results depend on the processing

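For 19 values (the relative background, 6 ratios of peak number, 8 density ratios and 4 shares at CTCF), 109 alternatives were computed, and none of them turned a direction. In 87 the value moved by less than its counting interval or its spread over the lists, and in 22 by more. Density ratios by class were not among the 19 values, and some of them did turn. With a fold enrichment of at least 5, wild-type SMC1 peaks near a start without CTCF had 0.346 (0.0854 to 1.41), compared with 2.17 as deposited. For ΔWAPL SMC1 peaks without CTCF farther away it was 0.577 (0.196 to 1.70), compared with 2.28. These classes are small, and both intervals hold 1. With a −log10 q of at least 10, the ratio of SMC1 peaks in ΔSCC4 to wild-type cells was 0.620, the SMC1 density ratios were 2.81, 2.17, 3.03 and 2.24, and the shares of SMC1 peaks at CTCF were 99.6%, 93.4%, 99.3% and 97.3%, in the genotype order used above. With a fold enrichment of at least 5, the density ratios of the first 3 were 1.58, 1.57 and 1.61. With halved pileup and background the shares at CTCF were 94.7% in wild-type and 94.6% in ΔSCC4 cells. With halving and the 5th percentile as the limit, chosen after seeing the data, the density ratios were 1.40, 1.35, 1.46 and 1.41 for SMC1 and 1.37, 1.30, 1.40 and 1.30 for CTCF. The causes were not tested. No paired analysis was possible because each group has 1 library. Peaks near the calling limit, with few reads, are the least certain, and a peak that is absent from a list was not detectable at its depth and threshold.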
